A study of Mus musculus with 20 samples.

Results

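The genes described here were the transcription factors Creb1, Crem and Atf1, the coactivators Crtc1, Crtc2, Crtc3 and Crebbp, and the protein kinase A (PKA) subunit genes Prkaca, Prkar1a and Prkar2b. These 10 genes were chosen by name from the 45706 genes in the count files, by matching Ensembl identifiers to mouse symbols, a rule that uses no measured value, although earlier results of these data were known when the genes were chosen. Each of the 10 passed the filter on low counts in tumors and in cells. RNA was sequenced from 8 mammary tumors and from 12 cultures of tumor cells. All material came from mice carrying the MMTV-PyMT transgene, in which the mouse mammary tumor virus promoter drives the polyoma middle T oncogene in mammary epithelium. The 4 Ctsd-/- tumors came from mice in which MMTV-driven cre removes a floxed part of Ctsd, the gene of the lysosomal protease cathepsin D, so that stromal cells of these tumors keep the gene. The 4 control tumors were labelled wild type, and the study's controls are cathepsin D-competent PyMT mice that may carry floxed Ctsd alleles without cre. Tumors of both genotypes were taken at an age of 18 weeks. The cells were spontaneously immortalized PyMT tumor lines, labelled wild type (Ctsd+/+ here) or Ctsd-/-, kept in medium with 1% fetal calf serum (FCS), a mild starvation, for 10 days (1% FCS) or for 12 weeks (1% FCS LT), with 3 samples per group. Each genotype was represented by a line from 1 mouse, so a difference between genotypes cannot be told apart from a difference between these lines, and p-values measure the spread between repeat cultures.

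As background, receptors coupled to stimulatory G proteins activate adenylyl cyclases, which make cyclic AMP (cAMP). cAMP binds the regulatory subunits of PKA and frees the catalytic subunits, which phosphorylate the CREB family. These factors bind the cAMP response element (CRE) and act through the CRTC proteins and the acetyltransferase CREB-binding protein. Phosphorylation and localization set the activity of these proteins to a large degree, and neither is read by the mRNA levels given here.

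The sequences below show the letters of the response element near the starts of the PKA subunit genes and Atf1, since these are the motifs that CREB proteins recognize. The RefSeq promoter table of GRCm38.p6 holds 300-base windows from 250 bases before to 50 bases after each start. Windows of 8 of the 10 genes were searched. Crem was left out of the search, and no window was matched to Crtc2. The full palindrome TGACGTCA was searched together with its 5-letter cores, TGACG on the printed strand and CGTCA for the opposite strand. A full palindrome contains both cores. Of the 32851 windows in the table, 588 (1.79%) held the full palindrome and 6837 (20.8%) at least 1 core. Counted by gene, 549 of 27025 (2.03%) held the full palindrome in a window and 6228 (23.05%) a core. Among the 8 members searched, 1 gene, Prkar1a, held the full palindrome, and 3 genes held a core, namely Prkar1a, Prkaca and Atf1. Prkar1a has 6 windows in the table and thus more letters searched than a gene with 1, and its palindrome falls in 2 of them, which overlap. This palindrome starts 49 bases before the later of their RefSeq starts and spans positions 109650900 to 109650907 of chromosome 11, inside the Prkar1a gene, where 3 annotated GENCODE M21 transcripts span it and no annotated exon overlaps it. The 30 bases around it on the plus strand (chr11:109650889-109650918) are printed first, with the element in capitals. The 30 bases around the Atf1 core (chr15:100227757-100227786, plus strand) lie upstream of the gene. The 250 bases before the Prkaca start (chr8:83972728-83972977, plus strand) carry 2 cores in capitals, which start 120 and 6 bases before it.
Prkar1a: gcgaggcgcatTGACGTCAgcagccgaacg
Atf1: gtgaccacgcggTGACGcagcacgccggcg
Prkaca: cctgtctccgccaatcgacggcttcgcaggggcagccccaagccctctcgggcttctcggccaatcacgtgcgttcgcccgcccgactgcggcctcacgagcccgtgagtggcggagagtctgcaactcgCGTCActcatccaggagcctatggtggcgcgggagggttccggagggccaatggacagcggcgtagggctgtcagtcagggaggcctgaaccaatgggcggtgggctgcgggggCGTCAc
No match was found in the windows of Creb1, Crtc1, Crtc3, Crebbp and Prkar2b. A match is a description of the letters, and binding was not measured.

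Totals on genes were 49725437 to 64291587 counts per tumor and 33622831 to 40239762 per cell sample. Ctsd itself averaged 2198 CPM (the usual per-library scaling of counts, here by the effective library size) in control and 921 CPM in Ctsd-/- tumors without overlap of the groups. It did not pass an adjusted p under 0.05 in tumors (log2 FC -1.25, edgeR adjusted p = 0.463), so the tumor test did not call even the gene that was deleted. In Ctsd+/+ against Ctsd-/- cells Ctsd averaged 2775 against 155 CPM in 1% FCS and 1730 against 129 CPM in 1% FCS LT. Control tumor 4 stood apart, with the lowest total, the largest share of reads overlapping more than 1 gene (15.6%) and 866 CPM of summed skeletal muscle markers, against 1.61 to 15.6 CPM in the other controls. All 5 luminal epithelial markers were present in every cell group, with summed levels of 878 to 1692 CPM in Ctsd+/+ 1% FCS cells and 4284 to 10110 CPM in the other 9 cultures. The 6 fibroblast and pericyte markers summed to 1158, 3044 and 1634 CPM in the 3 Ctsd+/+ 1% FCS cultures and to at most 99.7 CPM in the others. Of these, 4 markers, Col1a1, Col1a2, Pdgfra and Pdgfrb, had a median of at least 1 CPM in Ctsd+/+ 1% FCS cells. Dpt and Lum were at 0 there and had a median of 0 in every other cell group too. The part of the fibroblast and pericyte markers in the differences that involve Ctsd+/+ 1% FCS cells was not tested.

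Compared per kb of exon, Prkar1a ranked first and Prkaca second of the 10 genes in every group. In Ctsd+/+ 1% FCS cells, Prkar1a stood at 129 ± 19.1 CPM per kb and Prkaca at 42.2 ± 3.08 CPM per kb (mean ± SD, n = 3). The factors were lower, with Atf1 at 11.6 ± 0.763, Creb1 at 3.53 ± 0.272 and Crem at 1.41 ± 0.121 CPM per kb. This order depends on the annotated exon length, 13742 bases for Creb1 and 3060 for Atf1. In CPM, Creb1 (48.45) was above Atf1 (35.45) in the same cells. Among the coactivators Crtc2 (13.7 ± 1.16 CPM per kb) was above Crebbp (7.44 ± 1.16), Crtc3 (4.50 ± 0.510) and Crtc1 (2.71 ± 0.377). In tumors Crem ranked higher, at rank 3 of the 10 genes in controls with 9.44 ± 4.55 CPM per kb (n = 4), and Crtc3 was last at 1.35 ± 0.589. Levels in tumors and cells were not tested against each other, since libraries and the strand form of the counts differ. The plot of levels by sample shows all values.

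**Figure D1:**
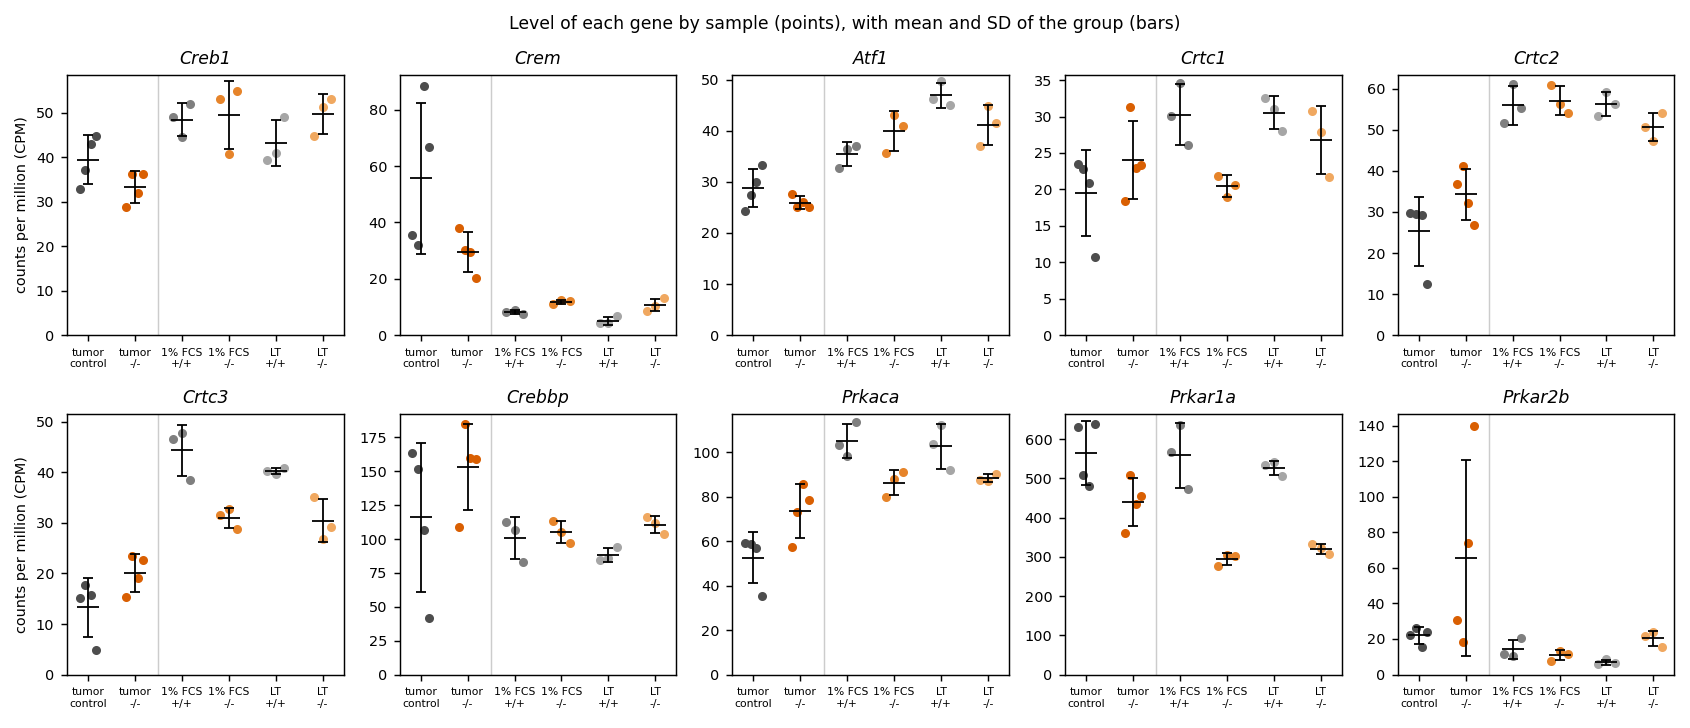
CPM of the 10 genes in each sample (points) of the 6 groups, with the group mean and SD (bars); tumors stand left of the grey line and cells right of it. Prkar1a separates the cell genotypes at both culture times, with Ctsd-/- cultures between 276 and 332 CPM and Ctsd+/+ cultures between 472 and 637 CPM.

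The first comparison in cells asked how the CREB and PKA genes differ between genotypes after short starvation. In 1% FCS, 4 of the 10 genes were lower in Ctsd-/- than in Ctsd+/+ cells and none was higher at an adjusted p under 0.05 (edgeR quasi-likelihood test, Benjamini-Hochberg adjustment over 15178 genes). The 4 were the PKA subunits Prkar1a and Prkaca and the coactivators Crtc1 and Crtc3. Over all genes tested, 48.5% passed this threshold in either direction, 23.5% higher and 25.1% lower, so 4 of 10 is near the background. No gene of the 10 passed an adjusted p under 0.05 together with an absolute log2 FC above 1, against 25% of all genes. The count of 0 higher genes compares with 1 at an unadjusted p under 0.05 (Crem), 0 by DESeq2 and 1 by limma-voom (Crem). The median log2 FC of the 10 was -0.13, beside 0.00 over all genes tested.

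Prkar1a encodes the type I alpha regulatory subunit, which holds the catalytic subunits inactive in the absence of cAMP and whose loss in people causes Carney complex. Its level was 568, 637 and 472 CPM in the Ctsd+/+ and 276, 305 and 301 CPM in the Ctsd-/- cultures in 1% FCS. The groups did not overlap, and the log2 FC was -0.93 (SE 0.114, adjusted p = 4.65e-05 by edgeR). With long starvation it was 533, 542 and 507 CPM in Ctsd+/+ and 332, 323 and 307 CPM in Ctsd-/- cultures. The difference was present again without overlap (log2 FC -0.72, SE 0.113, edgeR adjusted p = 0.000412). The effect of genotype at the 2 culture times was not distinguishable in size (interaction 0.21, 95% interval -0.14 to 0.56). Among the 8 cell samples that share the most common code after LR in their labels the log2 FC was -0.87 in 1% FCS and -0.71 in 1% FCS LT (adjusted p = 0.00198 and 0.00622), and in all 15 alternatives of either comparison Prkar1a remained lower and past the threshold.

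Prkaca encodes the alpha catalytic subunit, the main kinase of the PKA holoenzyme in most tissues. It measured 103, 98.4 and 113 CPM in Ctsd+/+ and 80.0, 88.0 and 91.1 CPM in Ctsd-/- 1% FCS cells. Every Ctsd-/- culture was below every Ctsd+/+ culture, but the difference was small (log2 FC -0.28, SE 0.097, edgeR adjusted p = 0.0309). The call was lost in 6 of 15 alternatives, with an adjusted p of up to 0.107, among them when Ctsd+/+ replicate 1 or 3 or Ctsd-/- replicate 1 or 2 was left out (adjusted p = 0.0518, 0.0822, 0.107 and 0.0628). After 12 weeks Prkaca stood at 104, 112 and 92.1 CPM in Ctsd+/+ and at 87.6, 86.9 and 90.4 CPM in Ctsd-/- cells, again without overlap but past the threshold only when Ctsd+/+ LT replicate 3 was left out (log2 FC -0.22, 95% interval -0.43 to -0.01, edgeR adjusted p = 0.0967).

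Crtc1 and Crtc3 encode coactivators that salt-inducible kinases hold in the cytoplasm and that calcineurin and cAMP release to the nucleus. Crtc1 was 30.1, 34.6 and 26.1 CPM in Ctsd+/+ and 21.8, 18.9 and 20.6 CPM in Ctsd-/- 1% FCS cells. The groups did not overlap (log2 FC -0.57, SE 0.148, edgeR adjusted p = 0.00776). After 12 weeks its groups overlapped, at 28.0 to 32.5 CPM in Ctsd+/+ and 21.7 to 30.8 CPM in Ctsd-/- cells, and the log2 FC was -0.19 (95% interval -0.51 to 0.13). The change of this effect with culture time did not pass the test (interaction 0.38, edgeR adjusted p = 0.196). Crtc3 was 46.7, 47.8 and 38.6 CPM in Ctsd+/+ and 31.5, 32.7 and 28.9 CPM in Ctsd-/- 1% FCS cells. It was also lower without overlap in 1% FCS LT, at 40.2, 39.7 and 41.0 CPM against 35.1, 26.9 and 29.3 CPM. The log2 FC was -0.52 in 1% FCS (SE 0.121, edgeR adjusted p = 0.00414) and -0.40 in 1% FCS LT (SE 0.121, edgeR adjusted p = 0.0193), where the call was lost without Ctsd-/- LT replicate 2 (adjusted p = 0.0894) or 3 (0.0629), with no filter on low counts (0.0602) and within the most common label code (0.117), 4 of 15 alternatives.

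Crtc2, a further coactivator of the family known for its role in hepatic gluconeogenesis, and Creb1, the founding factor of the family, were the genes of the 10 that passed in no cell comparison. Crtc2 ranged from 47.17 to 61.01 CPM over all 12 cultures, and its log2 FC between genotypes was 0.03 in 1% FCS (95% interval -0.18 to 0.24) and -0.15 in 1% FCS LT (-0.36 to 0.06). Creb1 measured 48.9, 44.5 and 51.9 CPM in Ctsd+/+ 1% FCS cells and 53.0, 40.7 and 54.8 CPM in Ctsd-/- 1% FCS cells. Long-term cultures measured 39.5, 41.0 and 49.0 CPM in Ctsd+/+ and 44.7, 51.3 and 53.2 CPM in Ctsd-/- cells. All neighbouring groups of Creb1 overlapped, and the intervals of its log2 FC between genotypes were -0.26 to 0.32 and -0.09 to 0.50.

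**Figure D2:**
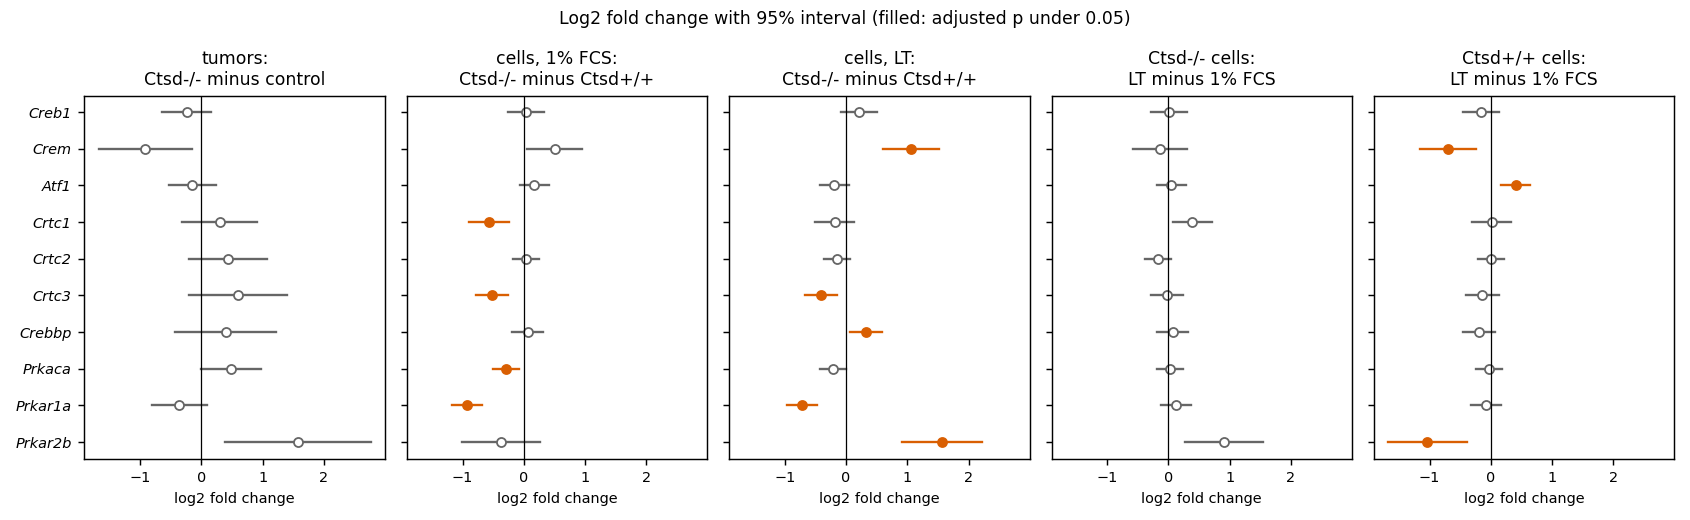
Log2 fold change of each gene (points) with its 95% interval (lines) in tumors and in the 4 comparisons between cell groups; filled points passed an adjusted p under 0.05. Prkar1a was lower in both comparisons of cell genotypes, at -0.93 and -0.72, while Prkar2b and Crem were higher in Ctsd-/- cells in 1% FCS LT, at 1.57 and 1.06.

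The same comparison between genotypes was made after long-term starvation. At 12 weeks 3 genes, Crem, Prkar2b and Crebbp, were higher and 2, Prkar1a and Crtc3, lower in Ctsd-/- than in Ctsd+/+ cells (39.6% of all genes passed, 20.5% higher and 19.1% lower), and 5 did not pass. Of these, 2 genes, Crem and Prkar2b, also exceeded an absolute log2 FC of 1 (19.4% of all genes). The median log2 FC of the 10 was -0.17, beside 0.01 over all genes tested. Both gene counts are close to the background.

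Crem encodes the cAMP-responsive element modulator, which yields activators and, from an internal promoter, the inducible repressor ICER. Gene counts do not separate these forms. In 1% FCS LT, Crem was 4.40, 4.21 and 6.77 CPM in Ctsd+/+ and 8.69, 10.5 and 13.1 CPM in Ctsd-/- cells. Each Ctsd-/- culture was above each Ctsd+/+ culture (log2 FC 1.06, SE 0.209, edgeR adjusted p = 0.00178). In 1% FCS it was 8.40, 9.01 and 7.59 CPM in Ctsd+/+ and 11.05, 12.3 and 12.1 CPM in Ctsd-/- cells, without overlap but not past the threshold (log2 FC 0.50, SE 0.207, edgeR adjusted p = 0.0623). Within the most common label code this difference was 0.56 with an adjusted p of 0.0356. In the order of cell groups Crem was highest in Ctsd-/- 1% FCS, followed by Ctsd-/- 1% FCS LT and Ctsd+/+ 1% FCS, each overlapping the next, and the lowest group, Ctsd+/+ 1% FCS LT, lay apart.

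Prkar2b encodes the type II beta regulatory subunit, a form known to predominate in adipose tissue and parts of the brain. In 1% FCS LT it was 5.76, 8.55 and 6.31 CPM in Ctsd+/+ and 21.5, 24.1 and 15.7 CPM in Ctsd-/- cells. The lowest Ctsd-/- culture was above the highest Ctsd+/+ culture (log2 FC 1.57, SE 0.298, edgeR adjusted p = 0.0014). In 1% FCS the groups overlapped, at 11.8, 10.3 and 20.4 CPM in Ctsd+/+ and 7.57, 13.4 and 11.8 CPM in Ctsd-/- cells (log2 FC -0.38, 95% interval -1.01 to 0.26). Adipocyte markers were near 0 in cells, with 8 markers summing to at most 1.91 CPM in any culture.

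Crebbp encodes the acetyltransferase that binds phosphorylated CREB. It was 84.5, 86.0 and 94.0 CPM in Ctsd+/+ and 116, 112 and 104 CPM in Ctsd-/- 1% FCS LT cells. The groups did not overlap and the log2 FC was 0.33 (SE 0.117, edgeR adjusted p = 0.0440), a call lost in 8 of 15 alternatives, including the omission of any of the 3 Ctsd+/+ or of Ctsd-/- replicate 1 or 2 (adjusted p = 0.0508 to 0.12). Before the long culture Crebbp overlapped between genotypes, at 82.9 to 112 CPM in Ctsd+/+ and 97.1 to 113 CPM in Ctsd-/- 1% FCS cells (log2 FC 0.06, 95% interval -0.19 to 0.32). Its paralog Ep300, the acetyltransferase p300, did not pass in any cell comparison and averaged 177.7 CPM in Ctsd-/- and 196 CPM in Ctsd+/+ 1% FCS LT cells.

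Atf1, a factor closely related to Creb1 that shares its PKA phosphorylation site, was 46.1, 49.7 and 45.1 CPM in Ctsd+/+ and 37.0, 44.8 and 41.4 CPM in Ctsd-/- 1% FCS LT cells. These groups did not overlap, but the difference did not pass the test (log2 FC -0.19, 95% interval -0.43 to 0.04). In all, 7 of the 10 genes had groups that did not overlap in 1% FCS LT, where 54.2% of all genes did, and 5 of 10 in 1% FCS, against 55.2%.

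The next question was how the long culture changed each line. In Ctsd-/- cells, no gene of the 10 passed an adjusted p under 0.05 between 1% FCS LT and 1% FCS by edgeR, and 2.38% of all genes did, 1.48% with an absolute log2 FC above 1. At an unadjusted p under 0.05 there were 2, Crtc1 and Prkar2b, both higher in 1% FCS LT. DESeq2 called 1 (Prkar2b, adjusted p = 0.0422) and limma-voom 0. Prkar2b was 7.57, 13.4 and 11.8 CPM in 1% FCS and 21.5, 24.1 and 15.7 CPM in 1% FCS LT, without overlap (log2 FC 0.91, 95% interval 0.27 to 1.54, edgeR adjusted p = 0.129). Crtc1 went from 18.9 to 21.8 CPM to 21.7 to 30.8 CPM with overlap (log2 FC 0.39, 95% interval 0.07 to 0.71, edgeR adjusted p = 0.191). Prkar1a did not overlap between the culture times, at 276 to 305 against 307 to 332 CPM, with a log2 FC of 0.12 (95% interval -0.12 to 0.37). Non-overlap was seen for 2 of the 10 genes and 25.4% of all genes. The median log2 FC of the 10 genes was 0.04, beside 0.00 over all genes tested.

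In Ctsd+/+ cells, 2 genes, Crem and Prkar2b, fell from 1% FCS to 1% FCS LT and 1, Atf1, rose, while 46.4% of all genes passed, 23% higher and 23.4% lower. The median log2 FC of the 10 was -0.11, beside 0.00 over all genes tested. Crem fell by 0.70 on the log2 scale (SE 0.209, edgeR adjusted p = 0.0166), a call lost without Ctsd+/+ 1% FCS replicate 2 or Ctsd+/+ LT replicate 1 or 2 (adjusted p = 0.0501, 0.0623 and 0.0705). Prkar2b fell by 1.04 (SE 0.295, edgeR adjusted p = 0.0126), and by 0.68 without Ctsd+/+ 1% FCS replicate 3, the culture with 20.4 CPM (adjusted p = 0.0612). Atf1 rose from 32.8, 36.5 and 37.1 CPM to 46.1, 49.7 and 45.1 CPM (log2 FC 0.41, SE 0.109, edgeR adjusted p = 0.00922), and this held in all 15 alternatives. Every one of these 3 genes had groups that did not overlap, and none of the other 7 did, against 53.7% of all genes. Crebbp passed only without Ctsd+/+ 1% FCS replicate 3 (log2 FC -0.31, adjusted p = 0.024).

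The interaction asked whether the genotype difference itself changed with culture time. It passed for 1 of the 10 genes, Prkar2b (30.3% of all genes). The difference between genotypes was larger by 1.95 on the log2 scale in 1% FCS LT than in 1% FCS (SE 0.415, edgeR adjusted p = 0.00432), and between 1.58 and 2.13 in 21 alternatives, all past the threshold. For Crem the interaction was 0.56 (95% interval -0.08 to 1.20, edgeR adjusted p = 0.175), and for Atf1 it was -0.36 (-0.70 to -0.03, adjusted p = 0.096). At an unadjusted p under 0.05 Atf1 was the only gene of the 10 with a negative interaction, and neither DESeq2 nor limma-voom called a negative one. The 5 comparisons in cells draw on the same 4 groups, so their values are not independent of each other.

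To place the regulatory subunits beside the catalytic ones, the CPM per kb of the 4 regulatory genes (Prkar1a, Prkar1b, Prkar2a, Prkar2b) were summed and divided by the sum of the 2 catalytic genes Prkaca and Prkacb in each sample. This measure was chosen after the values of the members were seen, so it is given as a description. The ratio was 2.89, 3.29 and 2.40 in Ctsd+/+ and 1.83, 1.92 and 1.85 in Ctsd-/- 1% FCS cells, and 3.03, 2.87 and 3.14 against 2.04, 2.05 and 1.85 in 1% FCS LT. All 6 Ctsd-/- cultures lay below all 6 Ctsd+/+ cultures. Prkar1a supplied 85.8% to 92.1% of the regulatory sum in Ctsd+/+ and 81.7% to 85.5% in Ctsd-/- cultures. The share of Prkar2b was 1.13% to 1.63% in Ctsd+/+ 1% FCS LT and 5.08% to 7.20% in Ctsd-/- 1% FCS LT cells. These are mRNA ratios and do not give the ratio of the proteins. Ratios and shares also depend on the annotated exon length, 4321 bases for Prkar1a and 2488 for Prkaca.

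The catalytic paralog Prkacb, which encodes the beta catalytic subunit, averaged 75.5 CPM in Ctsd+/+ and 74.9 CPM in Ctsd-/- 1% FCS cells, and 39.9 CPM in Ctsd+/+ and 84.1 CPM in Ctsd-/- 1% FCS LT cells. It was thus higher in Ctsd-/- cells in 1% FCS LT (log2 FC 1.07, SE 0.103, edgeR adjusted p = 1.13e-05), and it fell by 0.92 in Ctsd+/+ cells over the long culture (edgeR adjusted p = 2.64e-05). Prkar2a, the type II alpha regulatory subunit, was lower in Ctsd-/- 1% FCS LT cells, at 59.3 against 85.7 CPM (log2 FC -0.53, edgeR adjusted p = 0.0126). Prkar1b, the neuronal type I beta form, averaged at most 1.46 CPM in any cell group. Of the 7 genes in the list of other PKA subunits and inhibitors, 6 were tested in cells. In 1% FCS 2 were higher in Ctsd-/- cells, Prkx, a catalytic subunit-related kinase (104 against 46.1 CPM, log2 FC 1.17, edgeR adjusted p = 4.05e-05), and Prkar1b, and none was lower by edgeR, nor at an unadjusted p under 0.05, where 23.5% of all genes were called higher and 25.1% lower. With long culture 2 of the 6 were higher and 2 lower, against 20.5% and 19.1% of all genes.

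**Figure D3:**
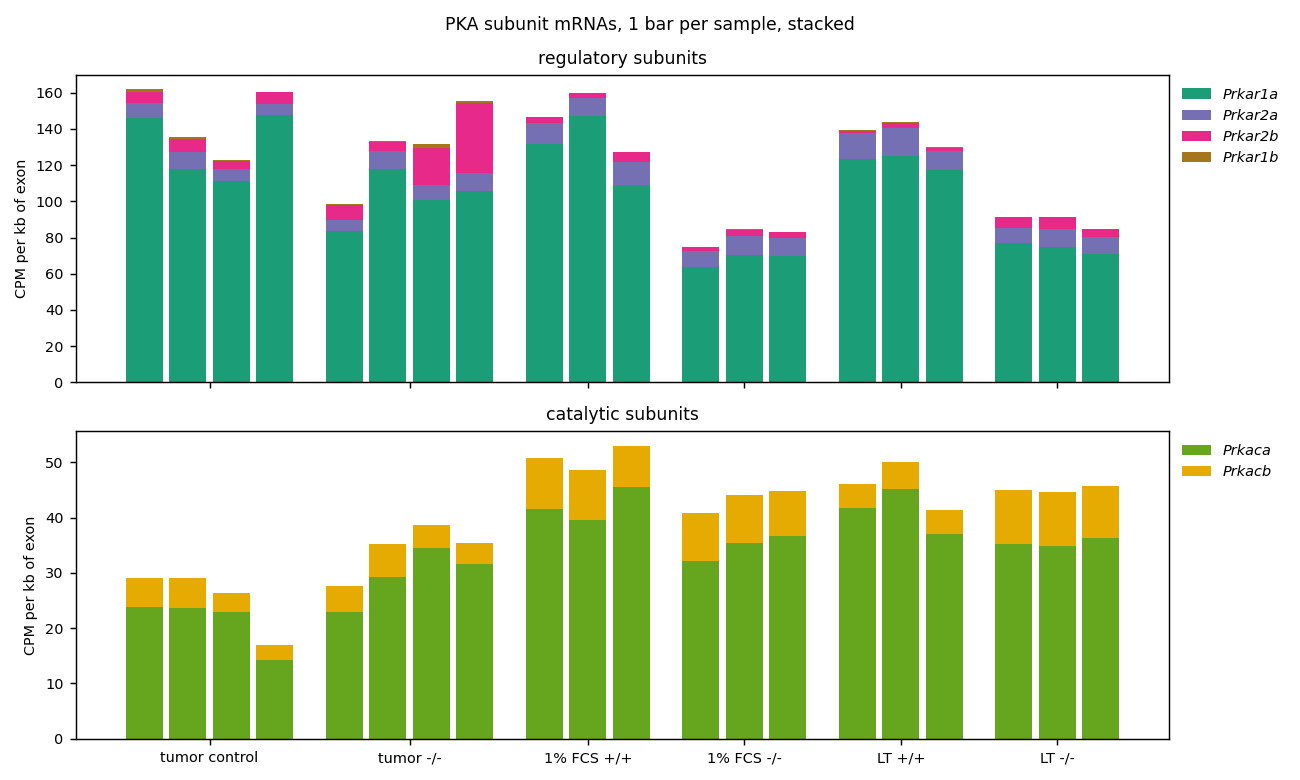
CPM per kb of exon of the regulatory (top) and catalytic (bottom) PKA subunit genes, stacked, with 1 bar per sample in the 6 groups. Regulatory bars of the 6 Ctsd-/- cultures reach 74.7 to 91.5 CPM per kb, below the 127 to 160 of the Ctsd+/+ cultures, and Prkar2b takes 15.3% and 24.6% of the bar in Ctsd-/- tumors 3 and 4.

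The genes whose log2 CPM ran most like a member over the 12 cell samples were listed for the 3 members with the widest spread of group means, out of 15177 other genes. For Prkar2b these were Trim36 (Pearson r = 0.921) and Psmc3ip (r = 0.916), for Crem Stam2 (r = 0.988) and Ccndbp1 (r = 0.986), and for Prkar1a Cog1 (r = 0.985) and Medag (r = 0.981). The 12 points share libraries and fall into 4 groups, so these values describe a common pattern over groups only.

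Upstream of PKA, 7 of 12 tested G proteins and adenylyl cyclases, which set cAMP production, were lower and 1 was higher in Ctsd-/- 1% FCS cells, against 25.1% and 23.5% of all genes. Adcy3, an adenylyl cyclase, averaged 6.07 against 37.7 CPM (log2 FC -2.63, SE 0.469, edgeR adjusted p = 0.000692). Adcy1, a calmodulin-stimulated cyclase, and Gnai1, an inhibitory G protein subunit, averaged 39.4 and 22.0 CPM in Ctsd+/+ cells and under 0.05 CPM (5 counts each over 3 samples) in Ctsd-/- cells. The filter on low counts keeps a gene that is high enough in any group, so Adcy1 and Gnai1 were tested only through other groups. Their lower calls are thus partly set by the filter. After long starvation 5 were lower and 1 higher (19.1% and 20.5% of all genes). From 1% FCS to 1% FCS LT, 6 of the 12 fell and 3 rose in Ctsd+/+ cells (23.4% and 23% of all genes). In Ctsd-/- cells, where 2.38% of all genes passed, none of the 12 did by edgeR (1 at an unadjusted p under 0.05).

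The cAMP phosphodiesterases degrade cAMP. Of 15 matched genes 10 were tested in cells, and all 10 passed in 1% FCS, 8 lower and 2 higher in Ctsd-/- cells, against 25.1% and 23.5% of all genes. Pde4b averaged 1.08 against 30.3 CPM (log2 FC -4.79, SE 0.339, edgeR adjusted p = 8.22e-07). Pde10a, at 4.98 CPM in Ctsd+/+ cells, had no count in the 3 Ctsd-/- cultures, and Pde8a averaged 10.1 CPM against 5 counts in all over the 3 Ctsd-/- cultures. Pde10a and Pde8a thus passed the filter on low counts only through other groups. A lower call for such genes is partly set by the filter, which limits what the count of lower genes shows. The most abundant member, Pde7a, went the other way (188 against 70.6 CPM, log2 FC 1.41, edgeR adjusted p = 4.02e-05, a gene named after its values were seen). At 12 weeks 4 were higher and 4 lower (20.5% and 19.1% of all genes). In Ctsd-/- cells, where 2.38% of all genes passed, 3 rose over the long culture, among them Pde3b from 0.262 to 1.54 CPM, and Pde7a fell from 188 to 113 CPM (log2 FC -0.74, edgeR adjusted p = 0.0437). All but Pde7a averaged under 3 CPM in Ctsd-/- cells, and fibroblast and pericyte markers were high in the Ctsd+/+ 1% FCS cultures as given above.

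The A-kinase anchoring proteins tether PKA to membranes and organelles. Of 11 tested, 2 passed as higher and 4 as lower in Ctsd-/- 1% FCS cells, and 1 as higher and 3 as lower in 1% FCS LT. These 6 and 4 of 11 are near the 48.5% and 39.6% of all genes that passed. Akap11, which binds type I and type II PKA, was lower at both times (62.6 against 104 CPM and 66.8 against 106 CPM, log2 FC -0.73 and -0.66, edgeR adjusted p = 5.11e-05 and 0.000157). Akap12 (gravin) fell in both lines over the long culture, from 171 to 22.2 CPM in Ctsd+/+ (log2 FC -2.94, edgeR adjusted p = 2.37e-07) and from 133 to 66.9 CPM in Ctsd-/- cells (log2 FC -0.99, edgeR adjusted p = 0.0103), and was higher in Ctsd-/- 1% FCS LT cells (log2 FC 1.59, edgeR adjusted p = 1.5e-05).

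Regulators of CREB and of the CRTC proteins moved in both directions, with 4 of 11 higher and 3 lower in Ctsd-/- 1% FCS cells and 2 higher and 3 lower in 1% FCS LT. Over all genes 23.5% were higher and 25.1% lower in the former and 20.5% and 19.1% in the latter. The salt-inducible kinases Sik1 and Sik2, which phosphorylate the CRTC proteins, were higher in Ctsd-/- 1% FCS cells, at 31.5 against 18.0 CPM and 66.9 against 40.6 CPM (log2 FC 0.81 and 0.72, edgeR adjusted p = 0.0114 and 0.000131). In Ctsd+/+ cells both rose over the long culture, to 65.1 and 103 CPM (log2 FC 1.85 and 1.35, edgeR adjusted p = 5.8e-05 and 1.63e-06), and Sik1 was then lower in Ctsd-/- 1% FCS LT cells (log2 FC -1.08, edgeR adjusted p = 0.00256). Among other kinases that can phosphorylate CREB, 5 of 16 were higher and 2 lower in 1% FCS, and 7 higher and 2 lower in 1% FCS LT. The shares of all genes were 23.5% higher and 25.1% lower in 1% FCS, and 20.5% higher and 19.1% lower in 1% FCS LT. Rps6ka2, a ribosomal S6 kinase, averaged 57.3 against 8.41 CPM in 1% FCS LT (log2 FC 2.77, edgeR adjusted p = 8.44e-06), and Camk2d, a calmodulin kinase, 69.5 against 16.4 CPM (log2 FC 2.09, edgeR adjusted p = 7.41e-07). Camk2b, a further calmodulin kinase, went the other way in 1% FCS LT, at 9.65 against 57.6 CPM (log2 FC -2.58, edgeR adjusted p = 0.00298), and Camk2d was lower in Ctsd-/- cells in 1% FCS, at 39.7 against 76.8 CPM (log2 FC -0.95, edgeR adjusted p = 9.75e-05).

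Among more distant CREB/ATF factors, 2 of 9 tested genes were higher and 2 lower in 1% FCS, and 1 was higher and 1 lower in 1% FCS LT, shares not above the 48.5% and 39.6% of all genes that passed. The ER-bound factors Creb3l1 and Creb3l2 were the 2 lower ones, with Creb3l1 at 0.544 against 46.7 CPM and Creb3l2 at 19.4 against 81.4 CPM (log2 FC -6.39 and -2.07, edgeR adjusted p = 4.37e-06 and 5.72e-06). Classic cAMP-responsive genes, downstream of CREB, were split, with 4 of 14 higher and 8 lower in 1% FCS and 6 higher and 6 lower in 1% FCS LT. Over all genes 23.5% were higher and 25.1% lower in 1% FCS, and 20.5% and 19.1% in 1% FCS LT. Egr1, an immediate early factor, was lower in Ctsd-/- cells at both times, at 12.4 against 132 CPM and 9.47 against 103 CPM (log2 FC -3.41 and -3.44, edgeR adjusted p = 1.33e-06 and 2.18e-06). Bdnf, a neurotrophin gene with a CRE in its promoter, was 20.2 against 106 CPM in 1% FCS (log2 FC -2.39, edgeR adjusted p = 1.26e-06) and fell to 4.94 CPM in Ctsd+/+ cells over the long culture. Rgs2, a brake on G protein signaling, was higher in Ctsd-/- 1% FCS LT cells at 23.7 against 1.78 CPM (log2 FC 3.73, edgeR adjusted p = 9.78e-05). In Ctsd-/- cells, where 1.57% of all genes were called higher over the long culture, 1 of the 14 rose. This was Gem, a small GTPase gene at low counts, from 0.498 to 2.34 CPM (log2 FC 2.22, edgeR adjusted p = 0.0201).

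**Figure D4:**
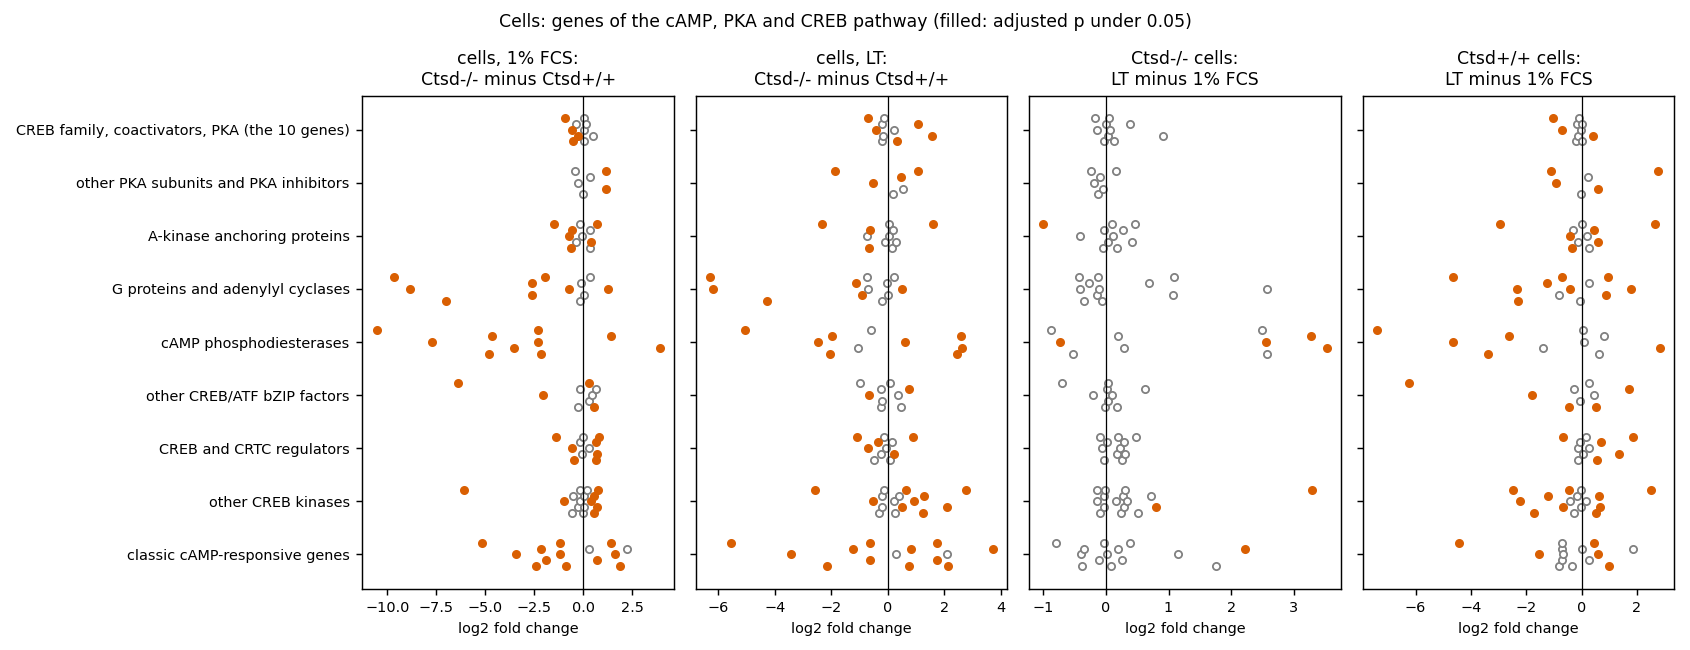
Log2 fold changes of single genes (points) in the 10 genes and 8 lists of related genes, in the 4 comparisons between cell groups; filled points passed an adjusted p under 0.05, panels have different axes, and values below about -7 involve groups with few or no counts. Phosphodiesterases and cyclases reach the lowest values in 1% FCS, while the 10 genes stay between -0.93 and 0.50 there.

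In tumors none of the 10 genes passed an adjusted p under 0.05 by edgeR, DESeq2 or limma-voom, nor did any listed pathway gene by edgeR, and 1 of 18617 genes tested did (0.00537%). Ctsd itself did not pass by edgeR either, so a gene not called here may still differ. At an unadjusted p under 0.05 there were 2, Crem and Prkar2b (8.94% of all genes). At an unadjusted p under 0.1, the threshold of the study for tumors, there were 3 (16.7% of all genes). Crem was the 1 on the lower side (8.27% of all genes), and Prkar2b and Prkaca were the 2 on the higher side (8.44%) in Ctsd-/- tumors. No gene of the 10 had groups that did not overlap, against 4.15% of all genes. The median log2 FC was 0.35 for the 10 genes and 0.00 over all genes. In bulk tissue, fewer cells of a type and less RNA per cell cannot be told apart. The code after LR in the labels holds 1 genotype each in tumors, so it cannot be told apart from genotype.

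Prkar2b was 22.2, 26.4, 15.5 and 23.7 CPM in control and 30.6, 18.0, 73.7 and 139.9 CPM in Ctsd-/- tumors. The higher mean rested on Ctsd-/- tumors 3 and 4, while Ctsd-/- tumors 1 and 2 were near the control range (log2 FC 1.58, SE 0.539, adjusted p = 0.519 by edgeR). Without Ctsd-/- tumor 4 the log2 FC was 0.89. The 8 adipocyte markers, all detected in every tumor, summed to 925, 3329, 541 and 5707 CPM in control and to 8247, 3441, 11060 and 24040 CPM in Ctsd-/- tumors, so that the highest sums were in the tumors with the highest Prkar2b. Other marker sums were also highest in Ctsd-/- tumors 3 and 4, with 230 and 214 CPM of 4 endothelial markers (30.7 to 92.3 CPM in the other 6 tumors), 125 and 164 CPM of 5 brown adipocyte markers (11.7 to 54.8 CPM) and 1620 and 1131 CPM of 5 basal epithelial markers (469 to 1111 CPM). The part of these 3 marker groups in the Prkar2b values was not tested. With the mean log2 CPM of the 8 adipocyte markers as a covariate the log2 FC of Prkar2b was -0.51 (edgeR adjusted p = 0.928), and 1 of the 10 genes passed an unadjusted p of 0.1. All 8 markers were themselves higher in Ctsd-/- tumors (median log2 FC 2.79, each at an unadjusted p under 0.05 by edgeR). Genotype and adipocyte marker level therefore cannot be told apart by this fit.

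Crem was 35.6, 31.8, 88.2 and 66.8 CPM in control and 37.9, 30.3, 29.4 and 20.4 CPM in Ctsd-/- tumors. Controls 3 and 4 were high and the other 2 lay among the Ctsd-/- values (log2 FC -0.91, SE 0.342, adjusted p = 0.544 by edgeR). It was -0.60 without control tumor 3 and -0.40 with the adipocyte covariate. Gm6225, annotated on the opposite strand, shares 472 exon bases with Crem, and tumor counts were taken regardless of strand. Controls 3 and 4 also had the largest shares of reads overlapping more than 1 gene (12.4% and 15.6%). The part of this library trait in the Crem values was not tested. Prkaca was 59.3, 58.6, 57.0 and 35.5 CPM in control and 57.2, 73.0, 85.6 and 78.5 CPM in Ctsd-/- tumors. The log2 FC was 0.48 (SE 0.221, adjusted p = 0.561 by edgeR) and 0.34 without control tumor 4. Unlike in the cells, the mean was higher in the Ctsd-/- group, and tumors and cells were not tested against each other.

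**Figure D5:**
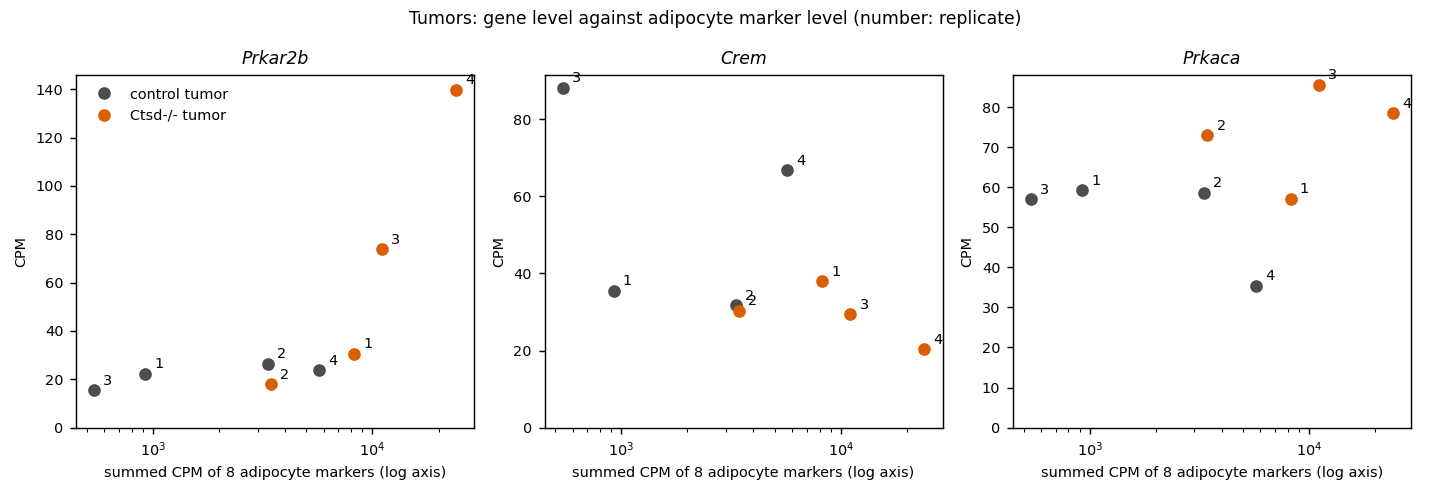
CPM of Prkar2b, Crem and Prkaca in each of the 8 tumors against the summed CPM of 8 adipocyte markers (log axis), with replicate numbers beside the points. Ctsd-/- tumors 3 and 4 are highest in both Prkar2b (73.7 and 139.9 CPM) and the markers (11060 and 24040 CPM).

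The regulatory subunit Prkar1a was 630.5, 508, 479.9 and 638 CPM in control and 360, 509, 436 and 456 CPM in Ctsd-/- tumors. The groups overlapped (log2 FC -0.36, 95% interval -0.81 to 0.10, edgeR adjusted p = 0.608). Creb1 was 32.8, 37.1, 42.9 and 44.8 CPM in control and 28.8, 36.2, 32.0 and 36.3 CPM in Ctsd-/- tumors (log2 FC -0.24, 95% interval -0.64 to 0.16), and Atf1 ranged from 24.3 to 33.3 CPM over all tumors. The coactivators were lowest in control tumor 4, at 10.7 CPM for Crtc1, 12.6 CPM for Crtc2, 4.77 CPM for Crtc3 and 42.1 CPM for Crebbp. In the other 3 controls Crtc1 stood at 20.9 to 23.4, Crtc2 at 29.3 to 29.8, Crtc3 at 15.1 to 17.6 and Crebbp at 107 to 163 CPM. The Ctsd-/- tumors measured 18.4 to 31.3 CPM for Crtc1, 26.8 to 41.2 CPM for Crtc2, 15.3 to 23.4 CPM for Crtc3 and 109 to 185 CPM for Crebbp, overlapping the controls in each case. The log2 FC of the 4 was 0.30, 0.44, 0.59 and 0.40 in that order, and 0.10, 0.22, 0.31 and 0.13 without control tumor 4.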

How the data were processed

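Per the labels and the study's methods, reads were trimmed with Trimmomatic and aligned with STAR to GRCm38/mm10, and the authors deposited raw counts per Ensembl gene in 3 strand forms, without normalization. Multimapping reads and reads overlapping several genes were not counted. The annotation release is not given in the sources used here. Symbols came from GENCODE M21, which held 45143 of 45706 identifiers. Counts regardless of strand were used for tumors (52.8% to 53.7% of stranded counts on the opposite strand) and opposite-strand counts for cells (97.1% to 97.3%). Replicates differed beyond sampling noise (chi-square per gene 15.4 to 551.5).

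Counts were filtered (filterByExpr), scaled with TMM and tested in R 4.3.3 with edgeR 4.0.16 (glmQLFit, glmQLFTest, two-sided, Benjamini-Hochberg adjustment over all genes), tumors alone and 12 cell samples in 1 fit with contrasts. Intervals of 95% are from the fit's t quantiles. CPM used edgeR effective library sizes. DESeq2 1.42.0, limma-voom (limma 3.58.1), other filters, size factors, strand forms, left-out samples, the replicate block, the adipocyte covariate and the label code were alternatives. The steps were tested on simulated data. The 10 genes and the gene lists were chosen with earlier results of these data known. Named list genes were up to 3 per list and comparison, ranked by the size of the log2 FC, that passed the threshold, had no overlap of groups and had counts above 10 in 1 whole group, the paralogs of members, and the genes with the highest correlation to 3 members. Of the 16 genes in the phosphodiesterase list 15 matched. Cell replicates carry a number and a code after LR in the labels, and repeat cultures may differ by technical spread. Code 38797 occurs only in 1% FCS and code 38863 only in 1% FCS LT cultures, 1 culture of each genotype. The code is thus in part tied to culture time. The most common code, 38862, holds 2 samples per cell group.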

Additional observations from a re-analysis of the deposited data

Results flagged for a closer look

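In control tumor 4, Crtc2 was at 12.56 CPM, with the other 3 controls at 29.3 to 29.8 CPM (gap divided by range 0.971), and Prkaca was at 35.46 CPM, with the others at 57.0 to 59.3 CPM (0.904), both far from the rest of their group by Dixon's criterion. Of 20 groups of 4 tumors tested in this way, chance alone marks about 1 in 20. This tumor also had the lowest total, the largest share of reads overlapping several genes and the highest skeletal muscle markers, and their part in these values was not tested.

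The genotype difference of Prkar2b in cells differed between culture times, by an interaction of 1.95 on the log2 scale (edgeR adjusted p = 0.00432). Prkar2b was higher in Ctsd-/- cells in 1% FCS LT (3 of 3 cultures above all 3 Ctsd+/+ cultures), and in 1% FCS the groups overlapped.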

How the results depend on the processing

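Of 970 values of single genes under the alternatives, 939 kept their side of the threshold, 22 lost the call, 9 gained one and 0 turned direction while called, and 41 changed sign where neither value passed. In tumors the number of genes past an unadjusted p of 0.1 was 5 with limma-voom and 1 with the adipocyte covariate, and 2 to 4 with single tumors left out, 2 without Ctsd-/- tumor 3 or 4. In 1% FCS the number higher in Ctsd-/- cells was 1 with limma-voom, with the label code as a term and within the most common code. In 1% FCS LT the number lower was 1 without a filter and within the most common code (Crtc3 lost in both), and 1 to 3 with samples left out. Long culture of Ctsd-/- cells gave 1 higher gene with DESeq2, and of Ctsd+/+ cells 1 to 2 lower with samples left out, 1 without Ctsd+/+ 1% FCS replicate 2 or Ctsd+/+ LT replicate 1 or 2. The interaction gave 2 higher genes (Crem added) with the label code as a term and 1 to 2 with samples left out, 2 without Ctsd+/+ LT replicate 3. The causes were not tested. With a replicate block the interaction gave 1 lower gene, Atf1 at -0.36 (adjusted p = 0.0488), and no other call of the 10 genes changed. The main fits did not pair samples by number. In tumors same-numbered deviations correlated at -0.303 to -0.00755. Between genotypes in 1% FCS the correlation was 0.1 to 0.362 (mean 0.254, other numbers -0.126). Over the long culture of Ctsd-/- cells it was 0.0766 to 0.192 (mean 0.147, other numbers -0.0734). Means were 0.0636 between genotypes in 1% FCS LT (other numbers -0.0316) and -0.0792 over the long culture of Ctsd+/+ cells (other numbers 0.0393). Group means were subtracted before correlating, so the values for other numbers largely follow from those for same numbers and are not a separate comparison. The mean correlation of same-numbered cell samples was thus positive in some comparisons and not in others.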
